A study of Caenorhabditis elegans with 2 samples.

Results

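The genes described here are 7 core genes of the target of rapamycin (TOR) pathway of Caenorhabditis elegans, namely let-363, daf-15, rict-1, rsks-1, raga-1, ragc-1 and rheb-1, out of 19973 annotated protein-coding genes on the 6 nuclear chromosomes. They were chosen by name for their place in the pathway, and the peaks of each were taken from 5 kb upstream of its annotated 5' end to its 3' end, called the gene window here. The binding measured is that of MDL-1, a MAD-like transcription factor, by ChIP-seq, the sequencing of DNA recovered with the protein from fixed chromatin, in whole first-stage (L1) larvae of mixed sex. There was 1 group of 2 biological replicates, both of strain OP106, which carries the unc-119(ed3) allele on chromosome III and the integrated transgene wgIs106 for an eGFP-mdl-1 fusion. The protein mapped is therefore the tagged product of a transgene in 1 integrated line, and peaks from whole animals do not tell in which cells the protein was bound. The labels do not say how the animals were grown or the extracts made, and the age within the stage is unknown.

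TOR is a protein kinase that joins growth to the supply of amino acids and to growth factor signals. It works in 2 complexes, TORC1, which holds Raptor, and TORC2, which holds Rictor. At the lysosome the Rag GTPases recruit TORC1 when amino acids are present and the small GTPase Rheb switches it on, after which TORC1 phosphorylates S6 kinase and other regulators of protein synthesis. In the worm, let-363 encodes TOR itself, daf-15 Raptor, rict-1 Rictor, rsks-1 S6 kinase, rheb-1 Rheb, and raga-1 and ragc-1 the Rag GTPases. Lowered activity of the pathway is known to slow growth and to extend adult life in worms. MDL-1 dimerises with MXL-1 and binds the canonical E-box, the hexamer CACGTG.

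The authors deposited an optimal list of 3870 peaks from their filter on the irreproducible discovery rate (IDR). The IDR is a measure of how well replicates rank the same peaks. The list was the 3870 highest pooled peaks, so a place in it does not by itself show that both replicates held the peak. Their relaxed lists of the pooled replicates, of replicate 1 and of replicate 2 held 30000 peaks each. Each peak carries a score, which is the authors' caller's own value on a scale that no label or header explains, so scores were only read and ranked within a list. In the IDR list the lowest score was 32.74, the median 58.8 and the highest 679.7. The lists hold no read counts, so depth is unknown.

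The sequence around the summit, the point of highest signal in a peak, is shown for the members whose highest peak it was, because whether these summits hold the hexamer that MDL-1 is known for is one of the main readings below. Each is 101 bases of the forward strand of ce11 (RefSeq WBcel235), centred on the summit. Capitals mark CANNTG, the general form of an E-box, and CACGCG, a related hexamer. The daf-15 sequence is chrIV:9386190-9386290, that of rsks-1 is chrIII:11243596-11243696, that of rheb-1 is chrIII:9456265-9456365, that of raga-1 is chrII:11297367-11297467 and that of ragc-1 is chrIV:11605022-11605122. The rict-1 sequence, chrII:13117278-13117378, is from its highest relaxed peak, since rict-1 had none in the IDR list.
daf-15: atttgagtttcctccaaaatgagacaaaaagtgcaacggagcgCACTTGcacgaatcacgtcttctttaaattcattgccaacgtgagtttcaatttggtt
rsks-1: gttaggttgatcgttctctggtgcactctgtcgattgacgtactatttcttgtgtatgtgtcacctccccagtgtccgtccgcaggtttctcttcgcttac
rheb-1: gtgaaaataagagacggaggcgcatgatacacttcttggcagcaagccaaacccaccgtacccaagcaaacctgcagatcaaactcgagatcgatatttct
raga-1: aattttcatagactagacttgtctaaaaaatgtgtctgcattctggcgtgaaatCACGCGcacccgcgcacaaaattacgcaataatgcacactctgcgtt
ragc-1: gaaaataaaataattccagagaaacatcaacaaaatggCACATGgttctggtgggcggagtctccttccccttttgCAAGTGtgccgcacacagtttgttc
rict-1: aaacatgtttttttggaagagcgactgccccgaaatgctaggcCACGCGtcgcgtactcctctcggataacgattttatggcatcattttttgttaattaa

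MDL-1 peaks of the IDR list lay in the gene window of 6 of the 7 genes, and at 3 of them, daf-15, rheb-1 and ragc-1, the summit stood in the promoter window, which reached 1000 bp before the 5' end and 200 bp past it. The exception was rict-1, the Rictor gene. Over all protein-coding genes, 27% had an IDR summit in a gene window built the same way and 12.8% had one in the promoter window, beside 85.7% and 42.9% of the 7 genes. No test was made, since the genes were chosen with earlier results of these data known and 7 genes of 1 pathway are not replicates. The scores were those of middling IDR peaks: the lowest of the 7 IDR summits of these genes scored 34.9, the median 68.5 and the highest 83.2, and the highest of them ranked 1113 of 3870.

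Where the summit lay relative to its neighbours differed from gene to gene. Of the 7 IDR summits, 4 were nearer to the 5' end of the member than to that of any other protein-coding gene, and 3 were nearer to another gene's. The summits of daf-15, rsks-1, ragc-1 and rheb-1 belonged to the first kind, those of let-363 and raga-1 to the second. At rheb-1 the margin was narrow, 285 bp against 293 bp to spk-1. Replicate 1 had the summit 282 bp upstream of rheb-1 and replicate 2 had it 309 bp upstream, which is nearer to spk-1. When each pooled summit was given only to the gene with the nearest 5' end, 4 of the 7 genes kept one, against 14% of all protein-coding genes. rheb-1 was among the 4 by this narrow margin only. Counted by promoter windows, 4 of the 7 summits lay in the promoter window of another gene and 2, the downstream summit of let-363 and that of rsks-1, lay in that of no gene. Over the whole list, 51.2% of IDR summits lay in some protein-coding promoter window.

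**Figure D1:**
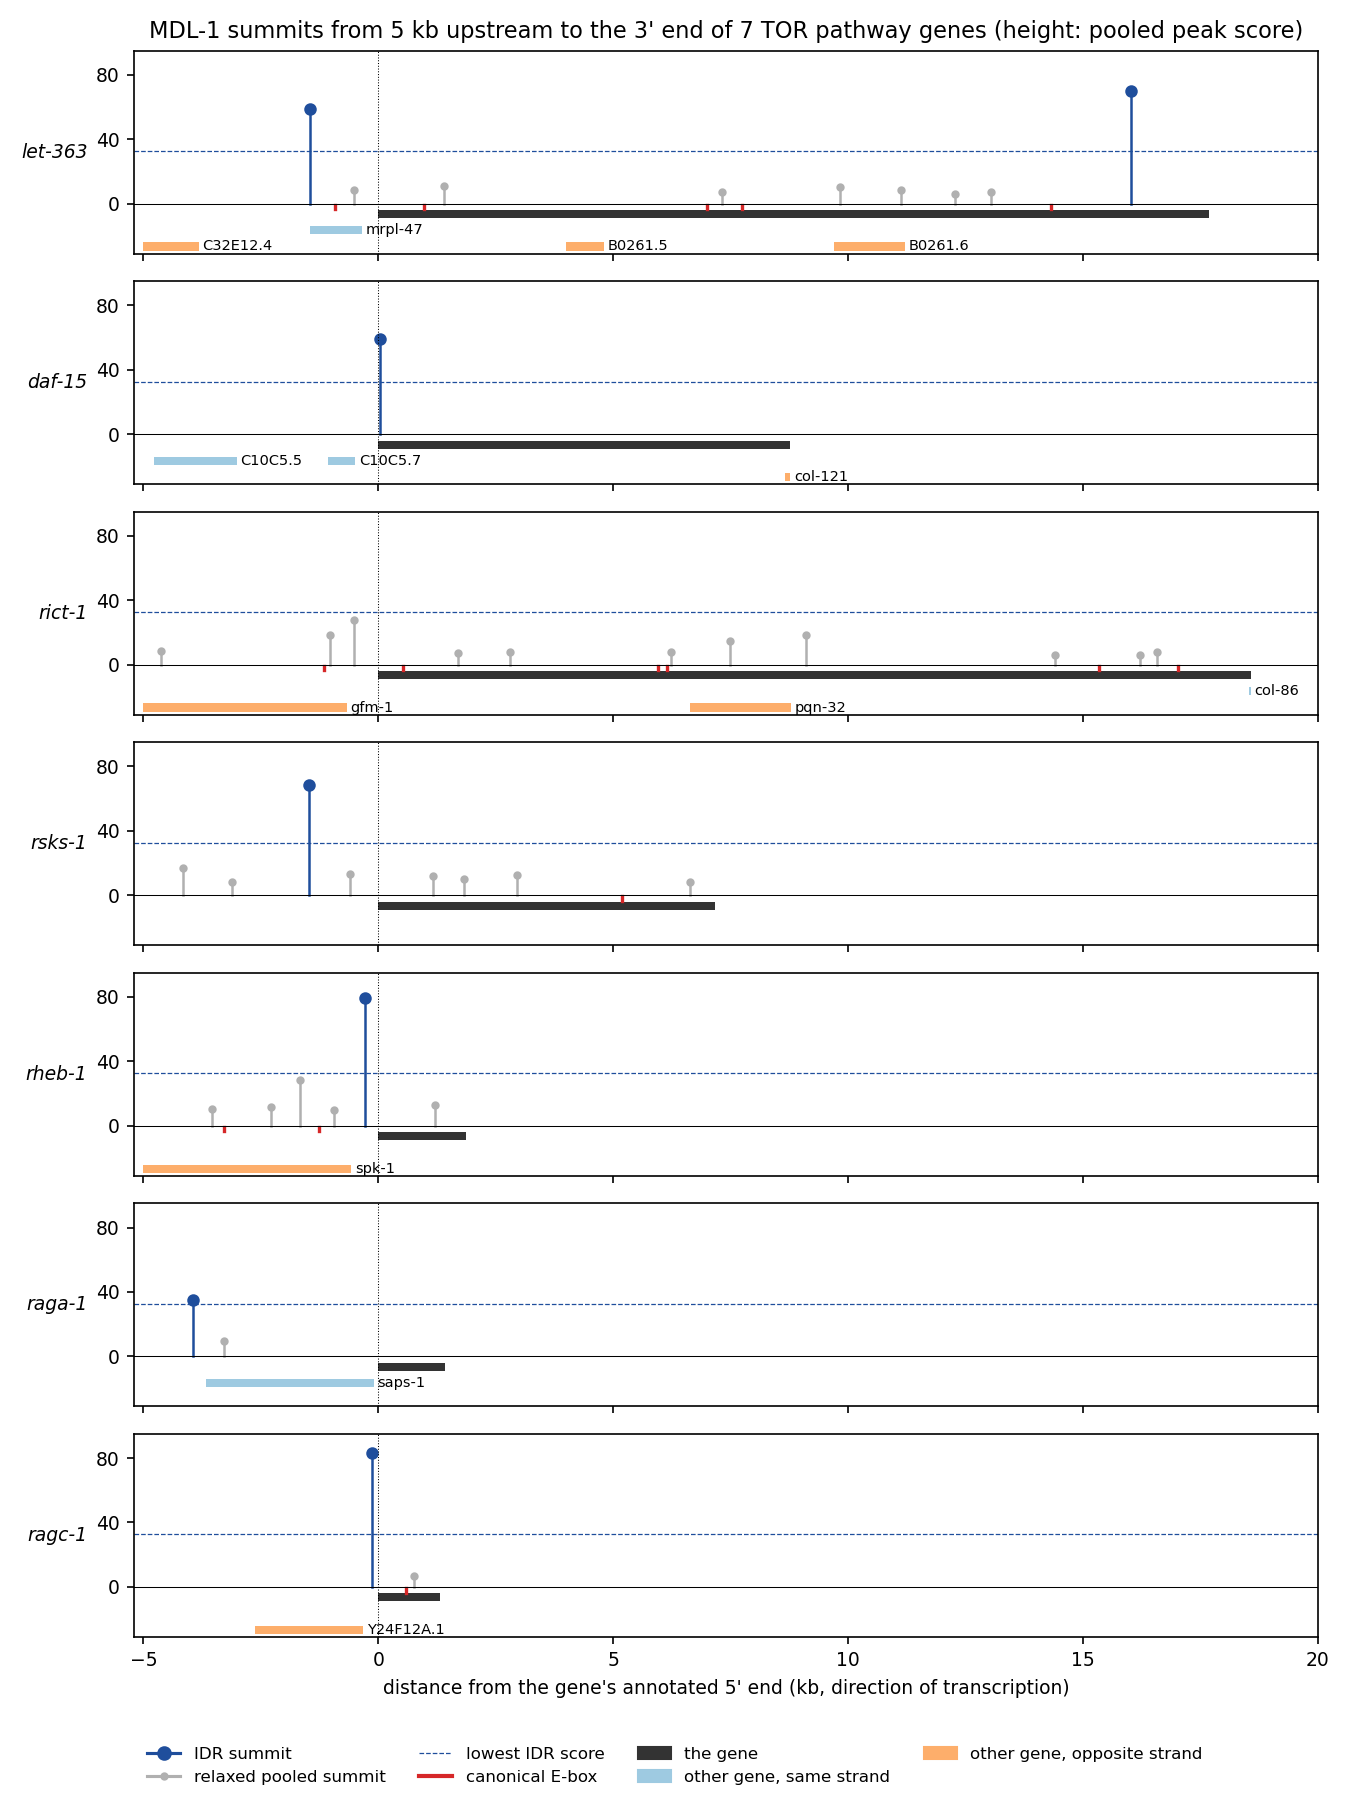
Each row is 1 gene, with the distance from its 5' end in kb on the x axis and the pooled peak score as the height of each stem; the dashed line is the lowest IDR score, 32.74. Blue stems are IDR summits, which stand in 6 of the 7 rows, grey stems are other relaxed summits, and red ticks are canonical E-boxes, none of which lies within 50 bp of a summit.

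let-363 (WBGene00002583, 5245743 to 5263424 of chromosome I, forward strand), the gene of the TOR kinase shared by both complexes, had 2 IDR summits, neither in its own promoter window. The higher lay at position 5261761, in an intron 16018 bp downstream of the 5' end and 1663 bp before the 3' end, with a pooled score of 70.3 and a pooled rank of 1477. The nearest 5' end was that of vep-1, 1933 bp away. The summit scored 31.3 in replicate 1, where it ranked 2205, and 39.3 in replicate 2, where it ranked 1009. The second lay at position 5244287, 1456 bp upstream, with a pooled score of 59.1 and a pooled rank of 1924. It scored 25.2 in replicate 1 and 32.8 in replicate 2, with ranks of 2910 and 1367. Both summits thus ranked higher in replicate 2. The upstream summit fell 4 bp inside mrpl-47, a gene named for a mitochondrial ribosomal protein, which lies on the same strand and ends 340 bp before let-363 begins, and the annotation puts it in the 5' UTR of that gene. In the promoter window of let-363 itself there was only a relaxed summit 510 bp upstream, in a coding exon of mrpl-47, with a pooled score of 8.83, which replicate 1 lacked within 200 bp and replicate 2 ranked 7749.

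daf-15 (WBGene00000911, 9386208 to 9394979 of chromosome IV, forward strand), the Raptor gene of TORC1, had 1 summit in its whole window of 13772 bp, also among the relaxed pooled peaks. It lay at position 9386240, 32 bp inside the gene as annotated, with a pooled score of 59.5 and a pooled rank of 1906. That 5' end belongs to 1 of the 5 annotated transcripts, in which the summit is coding sequence. The other 4 transcripts begin 210 or 217 bp downstream of the summit, so that for them it is upstream sequence. Replicate 1 scored it 42.7 at rank 1401, and replicate 2 scored it 11.2 at rank 6260. In replicate 2 the deposited q-value column, on the −log10 scale, stood at 1.51 there, against 4.01 in replicate 1. A rank in replicate 2 over 4 times that in replicate 1, as here (4.47 times), was found at 6.23% of the IDR summits matched in both replicates; this cut was set after the value had been seen. Replicate 2 also held 2 weaker summits inside daf-15, at 1966 and 3921 bp from the 5' end and with ranks of 14914 and 8904, which neither replicate 1 nor the pooled list had within 100 bp.

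rheb-1 (WBGene00010038, 9454163 to 9456030 of chromosome III, reverse strand), the gene of the GTPase that switches TORC1 on, had an IDR summit at position 9456315, 285 bp upstream. Its pooled score of 79.4 ranked 1209. It scored 51.5 in replicate 1 at rank 1035 and 28.7 in replicate 2 at rank 1645, so that it was well inside the highest 3870 of both. The neighbour spk-1, a gene of an SR protein kinase family that acts on splicing factors, begins 577 bp away on the opposite strand, and the same summit lay 293 bp upstream of it. The summit was therefore almost midway between the divergent genes, in both promoter windows, and the peak list does not tell which of them it belongs to. A second peak, 1661 bp upstream of rheb-1 and in the 5' UTR of spk-1, stayed below the IDR list with a pooled score of 28.8 and rank 4466. Replicate 1 ranked it 2671, and replicate 2 had no summit within 200 bp.

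ragc-1 (WBGene00012497, 11603613 to 11604933 of chromosome IV, reverse strand), a Rag GTPase gene of the RagC and RagD kind, held the highest-scoring summit of the 7 genes. It lay at position 11605072, 139 bp upstream, with a pooled score of 83.2 and rank 1113, and its called interval was only 78 bp wide where the IDR peaks of the other members were each 310 bp. It scored 49.2 in replicate 1 at rank 1126 and 35.2 in replicate 2 at rank 1220, so that the replicates placed it almost alike. A second annotated transcript of ragc-1 begins farther downstream, 1046 bp from the summit. The divergent gene Y24F12A.1 begins 320 bp away, and the summit lay 182 bp upstream of that gene, again in both promoter windows. Of the 1982 IDR summits in any protein-coding promoter window, 30.3% lay in those of 2 or more genes, as the summits of rheb-1 and ragc-1 did.

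raga-1 (WBGene00006414, 11301359 to 11302776 of chromosome II, forward strand), the partner Rag GTPase gene of the RagA and RagB kind, had no summit near its own 5' end in the pooled list. Its IDR summit lay at position 11297417, 3942 bp upstream, with a pooled score of 34.9 and rank 3609, close to the end of the IDR list. That point is 271 bp upstream of saps-1, whose name marks it as a gene of the phosphatase-associated SAPS family. saps-1 lies on the same strand and ends 98 bp before raga-1 begins. Closely spaced worm genes on the same strand are often transcribed together as an operon, but the annotation used here names no operons, so this was not examined for the pair. Replicate 1 had the summit within 2 bp at rank 3109 with a score of 23.8, while the nearest in replicate 2 was 129 bp away, at rank 9714 with a score of 8.54. Of all IDR summits, 94.5% had a summit of both replicates within 100 bp, and that of raga-1 was the one among the 7 here that did not. Replicate 2 alone had a further summit 1172 bp upstream of raga-1, within saps-1, at rank 5053.

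rsks-1 (WBGene00012929, 11245120 to 11252281 of chromosome III, forward strand), the S6 kinase gene, had an IDR summit at position 11243646, 1474 bp upstream and so outside the promoter window, in intergenic sequence with rsks-1 as the nearest gene. The pooled score was 68.5 at rank 1539. It scored 39.6 in replicate 1 at rank 1577 and 29.5 in replicate 2 at rank 1580, the closest pair of ranks among the 7 genes. There was no other protein-coding gene in its gene window, which sets rsks-1 apart from the other 6. The remaining 7 relaxed summits of the window scored between 8.01 and 17.2. Of these, the summit 2954 bp inside the gene ranked 4078 in replicate 2 and was missing from replicate 1, while the summit 4167 bp upstream ranked 5909 in replicate 1 and 26866 in replicate 2.

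rict-1 (WBGene00009245, 13098239 to 13116810 of chromosome II, reverse strand), the Rictor gene of TORC2, had the longest gene window of the 7, at 23572 bp, and no IDR summit in it. It held 11 relaxed summits, more than any other of the 7 genes. The highest lay 518 bp upstream of rict-1 and 155 bp upstream of the divergent gene gfm-1, which encodes a mitochondrial elongation factor, and stood in both promoter windows. Its pooled score was 27.7 at rank 4660, and its −log10 q-value was 3.27, where the lowest in the IDR list was 3.40. Replicate 1 scored it 17.9 at rank 4240 and replicate 2 scored it 9.39 at rank 8228, so it was outside the highest 3870 of either. The next 2, 9115 bp inside rict-1 and 1022 bp upstream of it, had pooled scores of 18.5 and 18.4 and were matched in both replicates within 100 bp. The first of these lay 324 bp upstream of pqn-32, in the promoter window of that gene. The second lay in a coding exon of gfm-1, 349 bp from its 5' end.

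Longer windows leave more room for a summit, and the share of genes with one was higher in the longer classes. It was 22.7% for gene windows under 8 kb, 34.8% for those from 8 to 16 kb and 45.5% for those over 16 kb; these classes were drawn after the members' lengths were known. In the shortest class raga-1, ragc-1 and rheb-1, with windows of 6418, 6321 and 6868 bp, each had 1 IDR summit. In the middle class daf-15 and rsks-1 each had 1. In the longest class let-363, at 22682 bp, had 2, and rict-1 had none. Per length, the 7 windows held 0.763 IDR summits per 10 kb over 91795 bp, and the windows of all protein-coding genes held 0.434 per 10 kb. The windows of neighbouring genes overlap, so a summit can be counted for several genes in the second value.

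**Figure D2:**
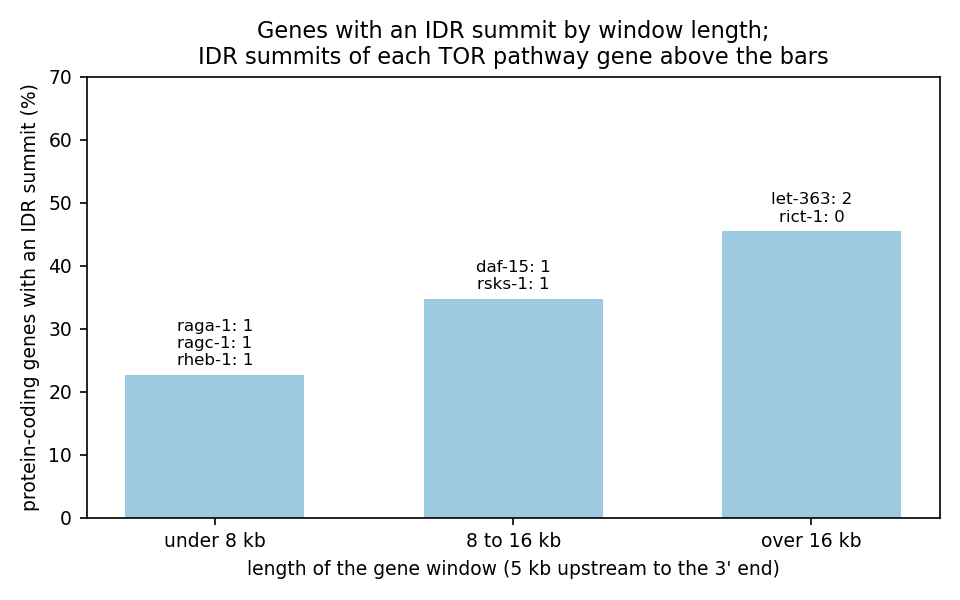
Bars give the percentage of protein-coding genes with an IDR summit in the gene window, for 3 classes of window length: 22.7%, 34.8% and 45.5%. The number of IDR summits of each of the 7 genes is written above the bar of its class, and rict-1 is the 1 gene with 0.

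Only 1 comparison between samples exists in the series, replicate 1 against replicate 2, and the 2 replicates ordered the genes differently. By the rank of each gene's highest pooled summit, the order was ragc-1, rheb-1, let-363, rsks-1, daf-15, raga-1 and rict-1. By the best-ranked peak that replicate 1 itself had in each window, it was rheb-1 at 1035, ragc-1 at 1126, daf-15 at 1401, rsks-1 at 1577, let-363 at 2205, raga-1 at 3109 and rict-1 at 4240. In replicate 2 it was let-363 at 1009, ragc-1 at 1220, rsks-1 at 1580, rheb-1 at 1645, raga-1 at 5053, daf-15 at 6260 and rict-1 at 6765. The raga-1 and rict-1 peaks of replicate 2 were not those that led the pooled list, since they lay 1172 and 1031 bp upstream. At the places of the leading pooled summits, replicate 2 ranked rict-1 8228 and, 129 bp away and so beyond the match distance, raga-1 9714. rict-1 came last in each replicate by its own best peak, and the order of the other 6 was not kept. Of the 7 IDR summits, 6 were matched in both replicates within 100 bp, and 5 of these ranked among the highest 3870 of both, as 67.8% of all IDR summits did. Those 5 belong to let-363, rsks-1, ragc-1 and rheb-1. Of the 6, 4 ranked better in replicate 1 and 2 in replicate 2, beside 50.5% better in replicate 1 for all matched IDR summits. The 2 replicate summits lay a median of 27.0 bp apart at the 6, and 22 bp apart at all matched IDR summits.

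**Figure D3:**
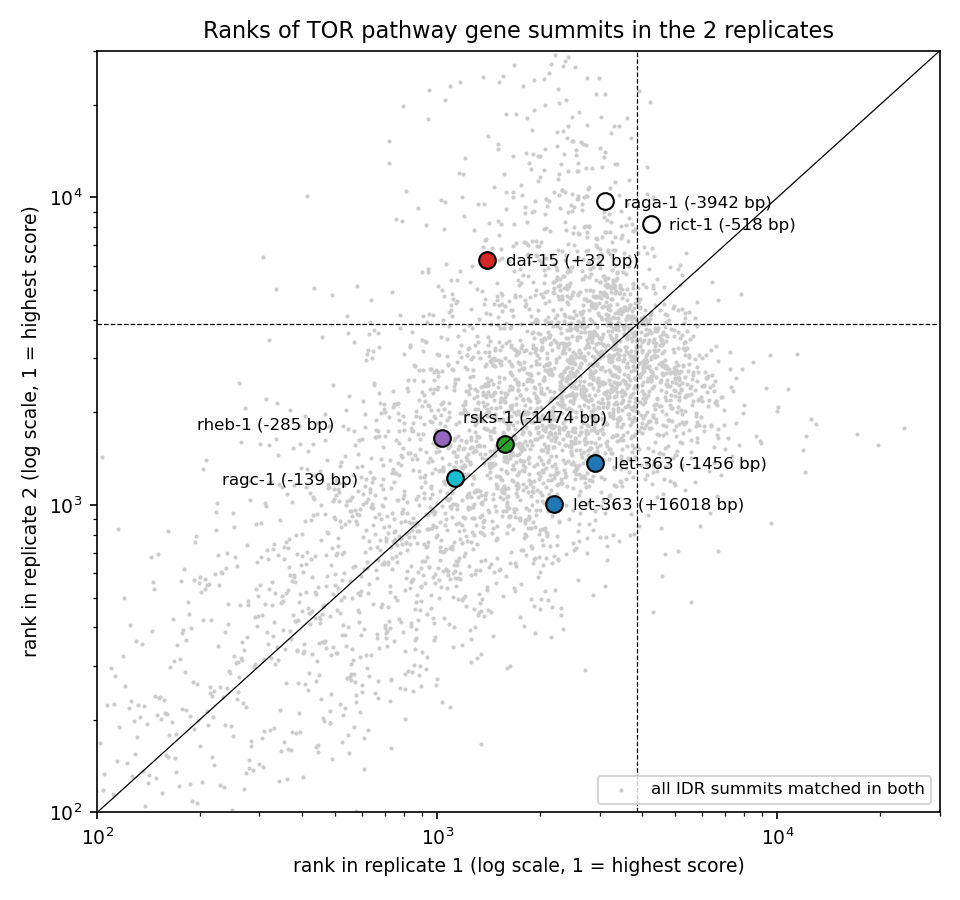
Rank in replicate 1 (x) against rank in replicate 2 (y), both on log axes from 100, for all matched IDR summits (grey) and those of the 7 genes (coloured), with the distance from the 5' end in brackets; dashed lines mark rank 3870 and the diagonal marks equal ranks. Open circles are raga-1, whose replicate 2 summit lay 129 bp away, and rict-1, which is not in the IDR list; these and daf-15, at rank 6260, stand above the upper dashed line.

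None of the 7 IDR summits had CACGTG within 50 bp, where 13.2% of all IDR summits did. With 7 summits a count of 0 allows a share of up to 42.9%, so the difference from the whole list is not detectable with this number of summits. None of the 39 relaxed pooled summits of the 7 windows had the hexamer either, which allows up to 7.69%, where 4.74% of all relaxed pooled summits had it. The limit lies above that share, so no difference was detectable there either. The hexamer itself was present in the windows of 5 genes, 15 times in all: 6 in that of rict-1, 5 in that of let-363, 2 in that of rheb-1 and 1 each in those of rsks-1 and ragc-1. The windows of daf-15 and raga-1 held none. Of the 15, 11 lay in coding exons and 4 in introns. None was within 50 bp of a relaxed pooled summit, and the closest was 75 bp from one, in an intron of rict-1 beside a summit of pooled rank 20862. On the 6 chromosomes, 3.02% of the 17729 CACGTG hexamers were within 50 bp of an IDR summit and 8.31% within 50 bp of a relaxed pooled summit. A count of 0 of 15 allows a share of up to 20%, above both of these.

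The general E-box CANNTG was found within 50 bp of 4 of the 7 IDR summits, and of 49.9% of all IDR summits. In the sequences shown above, daf-15 carried CACTTG close to the summit, and ragc-1 carried CACATG and CAAGTG on either side of it. Both let-363 summits also held CANNTG forms, whose sequences are not printed here. CACTTG or its reverse complement CAAGTG was within 50 bp of 4 of the 7, namely both let-363 summits and those of daf-15 and ragc-1, and of 7.31% of all IDR summits. It is 1 of 13 hexamers, with their reverse complements, that were counted, and it was singled out after its count had been seen. CACATG or CATGTG was at 2 of the 7, beside 10.9% of all. The downstream let-363 summit also held CATTTG, which with CAAATG was at 8.79% of all, and the upstream one CAATTG, which was at 4.19%. CACGCG or CGCGTG was at the summit of raga-1 alone among the IDR summits, beside 9.33% of all, and also at the relaxed summit of rict-1. The summits of rsks-1 and rheb-1 held none of the 13. A match here is only a run of letters in a window of 101 bp, and its absence says nothing about what was bound.

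All 7 genes had at least 1 relaxed pooled summit in the gene window, as 73.8% of protein-coding genes did. Outside the IDR summits the windows held 32 relaxed summits below the IDR list, of which 30 had pooled scores under 20. Of the 32, 8 were matched in both replicates within 100 bp and 8 in neither. The 2 above 20 were the rict-1 and rheb-1 summits with scores of 27.7 and 28.8. Replicate 1 had 33 summits in the 7 windows, 10 of them with no pooled summit within 100 bp, and replicate 2 had 31, with 9 such. A relaxed pooled summit matched in both replicates was found in the windows of 6 of the 7 genes, raga-1 being the exception, and in 45.1% of all protein-coding gene windows.

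The other genes of the pathway were taken from a list of 32 genes upstream of, within or downstream of the TOR complexes, of which 31 were found in the annotation; epg-1 was not matched. An IDR summit lay in the gene window of 21 of the 31 (67.7%) and in the promoter window of 11 (35.5%), against the 27% and 12.8% of all protein-coding genes given above. With nearest 5' ends only, 14 of the 31 kept a summit in the gene window, against 14% of all protein-coding genes. No test was made of these shares either, since the list was drawn up with earlier results of these data known.

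Among partners of the complexes, clk-2, the Tel2-like gene for a factor that stabilises TOR kinases in other species, had the highest IDR summit, with a score of 157, but 2317 bp upstream and nearest to cux-7. ruvb-2, a gene of a RuvB-like ATPase that helps to assemble such complexes in other species, had one 119 bp upstream with a score of 145, and ranked 403 in replicate 1 and 604 in replicate 2. Its partner ruvb-1 had none. The genes of the remaining subunits of the complexes differed: mlst-8, which is in both complexes, had no IDR summit in its window, and sinh-1 of TORC2 had an IDR summit of score 36.6 that lay 3176 bp upstream, nearest to pqn-87.

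Genes that carry the amino acid signal gave a mixed picture. Of the Ragulator genes, which anchor Rag GTPases at the lysosome in mammals, lmtr-3 had a promoter summit with a score of 63.8, 48 bp upstream. A higher one of lmtr-3 lay 2747 bp upstream with a score of 115 and a CACGTG, but nearest to mboa-2. lmtr-2 had a summit 3119 bp upstream with a score of 72.7, nearest to Y97E10AR.6, and lmtr-5 had none in its window. flcn-1, the folliculin gene, whose mammalian counterpart acts on the Rag GTPases, had one 2135 bp upstream with a score of 77.2, nearest to F22D3.4. The mammalian counterparts of the nucleoporin genes npp-20 and npp-18 also serve in a GATOR complex that takes part in the amino acid signal. These 2 genes had promoter summits 127 and 147 bp upstream, with scores of 86.5 and 44. npp-20 had a higher one 1656 bp upstream with a score of 181 and a CACGTG, but nearest to hxk-3. nprl-2 and nprl-3, the inhibitory GATOR subunit genes, and the sestrin gene sesn-1 had no IDR summit in the gene window.

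Insulin pathway kinases that feed into TOR also held summits. akt-2 had one 738 bp upstream with a score of 120, ranked 498 in replicate 1 and 913 in replicate 2. akt-1 had its highest summit 2332 bp upstream with a score of 142 and a CACGTG, and pdk-1 had one 1875 bp inside the gene with a score of 123. sgk-1, a kinase that TORC2 acts on, had none.

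Among genes downstream of TORC1, the autophagy gene atg-9 had the highest promoter summit of the 31, 139 bp upstream with a score of 277 and a CACGTG, ranked 57 in replicate 1 and 173 in replicate 2. The autophagy kinase gene unc-51 had a promoter summit with a score of 38. A higher one of unc-51 lay 1454 bp upstream with a score of 98.9, ranked 807 in replicate 1 and 756 in replicate 2. Of the genes for the cap-binding factor eIF4E, ife-2 and ife-3 had promoter summits with scores of 83.8 and 44.6, and ife-1, ife-4 and ife-5 had none in the gene window. A higher one of ife-3 lay 1107 bp upstream with a score of 52.3, nearest to B0348.10. The scaffold factor gene ifg-1 had one with a score of 50.5, nearest to M110.3. rps-6, the gene of the ribosomal protein that S6 kinase phosphorylates, had one with a score of 69.1, nearest to usp-3. hlh-30, the TFEB-like gene of a regulator of lysosome genes, had its highest summit 10616 bp inside the gene with a score of 183 and none in the promoter window. The remaining genes with a summit in the gene window but none in the promoter window were skn-1, pha-4 and efk-1. Their highest summits scored 110, 42.7 and 59.2. That of skn-1 had no match in replicate 1 and ranked 567 in replicate 2. The efk-1 summit lay 4678 bp upstream, nearest to abcf-3. CACGTG lay within 50 bp of 6 of the 38 IDR summits of these windows (15.8%), at 6 different genes, close to the 13.2% of all IDR summits.

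**Figure D4:**
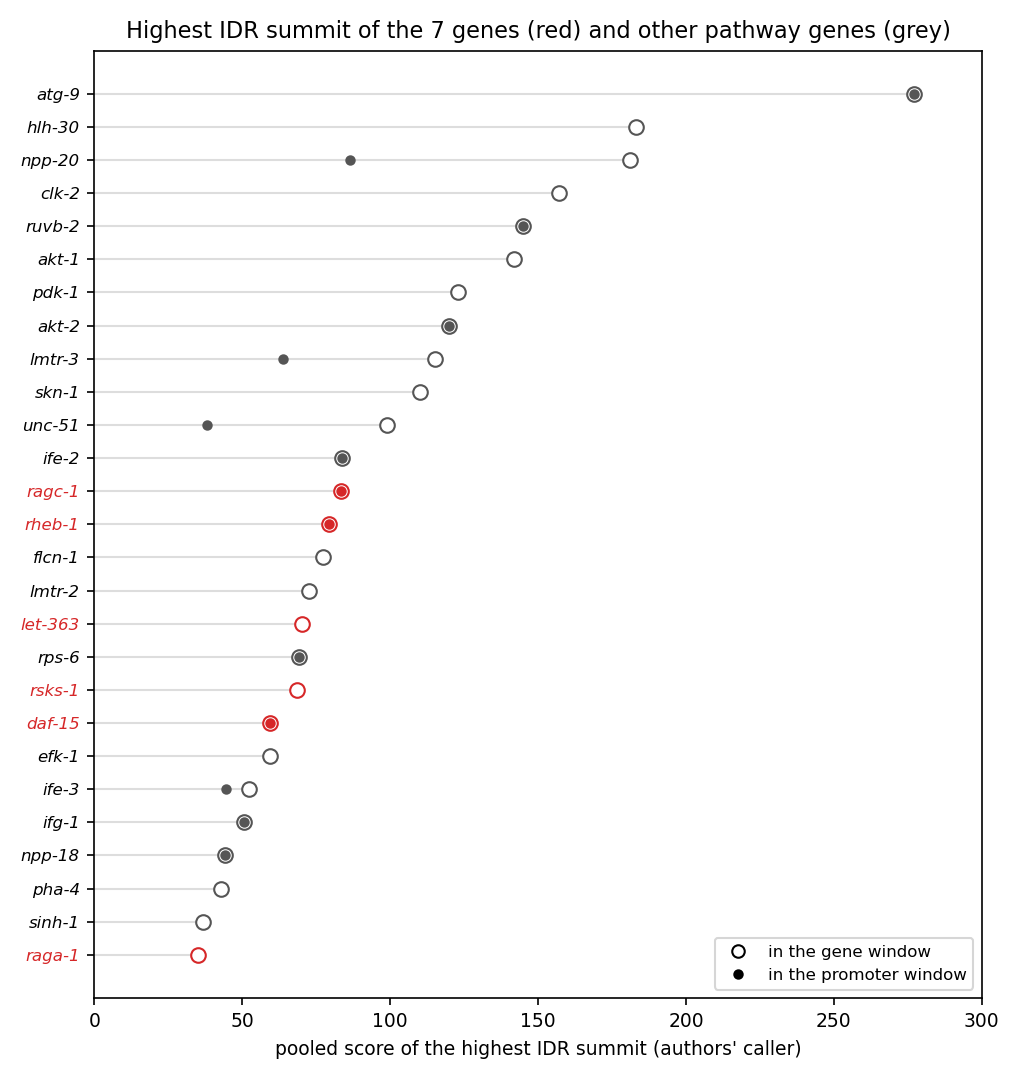
Pooled score of the highest IDR summit in the gene window (open circles) and in the promoter window (filled circles) for the 6 of the 7 core genes with an IDR summit (red) and the 21 other pathway genes with one (grey). The core genes lie between 34.9 and 83.2, and 12 of the other genes lie above 83.2, with atg-9 highest at 277.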

How the data were processed

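Peaks came from ChIP-seq of MDL-1 in 2 replicates of 1 group. Per the deposited file inventories, the authors called relaxed peaks on each replicate and on the pooled replicates, and made the IDR list from these 3. For ce11 the inventories name a control as input of the pooled list only. No label or header names the peak caller, the aligner or the IDR cutoff. The deposited score of each peak and the deposited q-value column, on the −log10 scale by its format, were read as given. Peaks were ranked by score within each list, and the IDR list was the 3870 highest pooled peaks. Relaxed lists end at 30000 peaks, so a missing peak is only below that end.

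Coordinates are ce11, 1-based. Genes came from Ensembl release 115 on WBcel235 and bases from the RefSeq genome of the same build. No peak ended beyond its chromosome, and 99.9% of 31805 annotated start codons read ATG. Summits, not intervals, were placed in windows, and replicate summits were matched within 100 bp. Hexamers were searched on both strands within 50 bp. Everything was computed in Python 3.11.15, and window, nearest-gene and hexamer searches were tested on simulated data.

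The genes, lists and windows were chosen with earlier results of these data known, so no test is given. Counts of genes with an IDR summit, and of IDR summits with a hexamer, stand beside the same count over all protein-coding genes or IDR summits. Some other counts have no such value beside them. Examples are the summits nearer to another gene, those in another gene's promoter window and the relaxed summits below the IDR list. Ranks and zero counts have no read depth behind them, and limits for counts of 0 use 3 counts of the total and cover counting error only. Named genes are all 7, every other pathway gene with an IDR summit in the promoter window and the 4 others with the highest summit. The remaining genes of the list were named after their values were seen, as were neighbours of the other pathway genes, such as cux-7 and pqn-87. The ce10 lists were not used, since no ce10 annotation was used here.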

Additional observations from a re-analysis of the deposited data

How the results depend on the processing

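Of 44 recomputed counts, 39 stayed within 1.5 times of the count reported. A fall from 6 genes to 4, or from 3 to 2, is still within that bound. The 39 also include CACGTG counts that could only be 0, so this tally does not measure stability. The gene window count of 6 of 7 ranged from 4 to 7: it was 5 with the 1935 highest IDR peaks, losing raga-1 (15.8% of all genes), and 7 with the 7740 highest pooled peaks, gaining rict-1 (41.8% of all genes). With the 3870 highest peaks of replicate 1 alone it was 6 and of replicate 2 alone 4, losing daf-15 and raga-1 (26.6% and 26.9% of all genes). The promoter counts were then 3 and 2 (12.3% and 12.4% of all genes), and the summit counts 8 and 5. A promoter window of 2000 bp upstream took in let-363 and rsks-1, for 5 genes (16.7% of all genes). The 7 IDR summits became 12 with 7740 pooled peaks, 4 with windows of 1000 bp upstream and 4 with nearest 5' ends only. The 11 other pathway genes with a promoter summit became 7 with the 1935 highest IDR peaks, where the share of all genes went from 12.8% to 7.16%. Replicate 1 alone and replicate 2 alone gave 20 and 22 of the 31 genes with a summit in the gene window, against 21 (26.6% and 26.9% of all genes). Each gave 11 in the promoter window (12.3% and 12.4% of all genes). CACGTG was also at 0 summits within 100 bp. Its other counts, within 25 bp and with 1935 or 7740 peaks, could only be 0. None of the 39 relaxed pooled summits had it within 50 bp. For the 13 ranks of single summits in 1 replicate, the spread was the standard deviation of the 2 replicate ranks. Of the 13, 6 differed from the pooled rank by more than this spread or had no spread. The spread is small where replicates rank a summit alike, so the count does not measure how stable the ranks are. The rsks-1 ranks of 1577 and 1580 were counted as different from 1539, while the let-363 ranks of 2205 and 1009 were not from 1477. raga-1 has no rank for replicate 2, which lacked a summit within 100 bp. No paired analysis was possible because the series has 1 group. Without read counts, depth limits every rank to an unknown extent.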
